A study of Mus musculus with 24 samples.

Results

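The miRNA pattern was measured in lungs of wild type and SP-C/c-raf transgenic mice, with 1 animal on each of 24 Agilent arrays. In SP-C/c-raf mice, the surfactant protein C promoter drives a mutant c-Raf kinase in the lung epithelium. The mutant has an amino-terminal deletion and is oncogenically activated. The 4 groups held 6 arrays each and were male wild type (M WT), male transgenic (M c-Raf), female wild type (F WT) and female transgenic (F c-Raf), all aged 4 to 6 months. The labels give the tissue as lung adenocarcinoma for wild type arrays too, and state that cells were microdissected from frozen sections.

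The miRNAs described here are all mouse entries of the array whose name starts with miR-297, miR-466, miR-467 or miR-669, star forms included. The rule found 39 of the 611 mouse miRNAs: 3 with the name miR-297, 14 with miR-466, 10 with miR-467 and 12 with miR-669. Names are those of the array design, where a star marks by convention the minor arm of a hairpin.

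These families arose from simple repeats and are known from rodents. Many of their genes stand in tandem copies in an intron of Sfmbt2, a gene for a Polycomb group protein on chromosome 2. That locus is imprinted, with expression from the paternal copy, and its miRNAs are best known from placenta and embryonic stem cells. A mature miRNA pairs with target transcripts mainly through its seed, and in repeat families the seed is often made of alternating U and G or of alternating A and C.

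The name of the cluster did not cover all of the 39. By the RefSeq gene table of assembly GRCm38.p6, 28 had genes of their name only inside Sfmbt2, and 3 had copies both inside it and elsewhere. Another 6 had their gene only outside Sfmbt2, and 2 had no gene of that name in the table. The members are therefore called here by their names and not as one locus.

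The RefSeq sequence table held the mature sequence of 6 of the 39, and of 187 of all 611 mouse miRNAs (30.6%). All 6 belong to genes outside Sfmbt2. They are printed 5′ to 3′ with the seed (bases 2 to 8) in capitals, since 3 of them were among the members seen on most arrays.
miR-467f: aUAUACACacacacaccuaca
miR-466i: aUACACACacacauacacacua
miR-467g: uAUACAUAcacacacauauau
miR-669n: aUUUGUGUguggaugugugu
miR-466j: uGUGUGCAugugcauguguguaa
miR-466k: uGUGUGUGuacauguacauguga

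The 6 seeds are all different, so no 2 of these members share one. On GRCm38.p6, miR-467f lies at chr11:69635419-69635439 on the minus strand and miR-466i at chr13:17747552-17747573 on the plus strand. For miR-466i the table lists 1 arm only, the 3p arm. miR-467g lies at chr5:34732872-34732892 on the minus strand. miR-669n lies at chr3:115979905-115979924 and miR-466k at chr3:85467396-85467418, both on the plus strand, and miR-466j lies at chr10:60960802-60960824 on the plus strand.

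All 6 hold a repeat of at least 7 bases. The motif UGUGUGU was found in miR-669n, miR-466j and miR-466k, and ACACACA or CACACAC in miR-467f, miR-466i and miR-467g. The search was made on the mature RNA strand as written, and overlapping matches counted. Among the 187 sequences, 5 (2.67%) held UGUGUGU and 4 (2.14%) held one of the AC motifs. In miR-466j the motif covers 7 bases and in miR-466k 9. The other 4 sequences, with the motif in capitals, show how much of each molecule is repeat.
miR-467f: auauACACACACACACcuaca
miR-466i: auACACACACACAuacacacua
miR-467g: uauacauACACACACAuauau
miR-669n: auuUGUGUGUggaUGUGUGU

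Outside the 4 names, 3 mouse miRNAs held such a motif among those with a sequence to search, and the 424 mouse miRNAs with no sequence in the table were not searched. They are shown because they carry a like repeat although they belong to other families, and all 3 lie on chromosome 5.
miR-1187: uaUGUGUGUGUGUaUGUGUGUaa
miR-574-5p: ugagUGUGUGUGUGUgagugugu
miR-574-3p: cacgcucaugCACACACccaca

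Detection here means the flag that the extraction software set for a miRNA on an array. Of the 39 members, 12 (30.8%) were detected on at least 1 array and 27 on none, beside 192 of the 572 other mouse miRNAs (33.6%). None of the 39 was detected on all 24 arrays, whereas 27 of the others were. Detection on at least 6 arrays was required for testing, and 7 members (17.9%) passed, beside 113 of the others (19.8%). Both shares were slightly below those of the other miRNAs, a difference that was not tested.

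miR-467f was the most frequent, detected on 12 arrays, and miR-466f-3p followed on 11. miR-466i was detected on 10 arrays, miR-466g and miR-669n on 9 each, miR-669f on 8 and miR-467a-1* on 6. Below the limit for testing, miR-467b* was detected on 5 arrays, miR-467g and miR-669h-3p on 4 each, miR-467e* on 3 and miR-466c-5p on 1.

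By name and by arm, the members detected are given as counts, beside 30.8% of all 39 and 33.6% of the other mouse miRNAs. Differences between these small sets were not tested. No miR-297 entry of 3 was detected. Of the miR-466 entries 4 of 14 were detected, of the miR-467 entries 5 of 10 and of the miR-669 entries 3 of 12. By arm, 3 of 4 star forms and 2 of 4 names ending in -3p were detected, but 1 of 7 names ending in -5p. The star forms detected were miR-467a-1*, miR-467b* and miR-467e*, whereas miR-467a, miR-467b and miR-467e without the star were detected on no array. The 24 names that carry no arm gave 6.

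By place in the genome, 4 of the 6 members with genes only outside Sfmbt2 were detected (66.7%), and 7 of the 28 with genes only inside it (25.0%). This difference was not tested either. Of the 3 with both, 1 was detected, miR-466f-3p. Among the 7 tested members, miR-467f, miR-466i and miR-669n belong to genes outside the Sfmbt2 intron, on chromosomes 11, 13 and 3. miR-466g, miR-467a-1* and miR-669f belong to genes inside it.

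The 27 members that were not detected gave intensities from -8.63 to 5.78 units, with a median of -0.28. Intensity is the background-subtracted brightness of a spot in arbitrary units, summarised as a median over 20 spots, and values below 0 are dimmer than the local background. Their highest value, 5.78, was that of miR-297c on M c-Raf replicate 3. The highest value of a tested member was 56.5 units. Probes differ in how strongly they bind labelled RNA, so levels are compared between arrays and not between members.

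The arrays themselves differed in depth, which for an array is its signal over background. The brightness of an array, taken as the 75th percentile of intensity over the spots of the 27 miRNAs detected everywhere, ran from 34.9 to 1212 units, and 38 to 179 mouse miRNAs were detected. Of 5 epithelial miRNAs, miR-200b and miR-200c were detected on all 24 arrays, miR-429 on 13, miR-200a on 11 and miR-141 on 1. Of the endothelial pair, miR-126-3p was detected on 23 arrays and miR-126-5p on none. Of the smooth muscle miRNAs 2 of 2 (3 arrays each), of the leukocyte miRNAs 3 of 5 (7 to 12 arrays) and of the erythroid miRNAs 2 of 3 (miR-486 on 22 arrays and miR-451 on 15) were detected. Of 7 miRNAs of other tissues, miR-375 was detected on 16 arrays, miR-133a on 14 and miR-122 on 2, and the others, miR-124 and miR-9 of brain among them, on none. Of 6 placenta and embryonic stem cell miRNAs (miR-290 and miR-302 families), 2 were detected, on 1 array each. In such bulk RNA, fewer cells of a type and less RNA per cell cannot be told apart. Each replicate number was 1 slide with 1 array of every group, at the same slide position for a group, so that position and group cannot be told apart.

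Members were unevenly spread over the arrays. The dimmest signal well above background, which bears on detection, also differed between arrays. It was 6.77 to 8.98 units on the arrays of slide 4 and 19.0 to 23.3 on those of slides 2 and 3. On M WT replicate 5 it was 27.0 units. The part of this limit in the counts was not tested. On 11 of the 24 arrays no member was detected, and on 8 arrays 6 or more were. In M WT, replicates 1 to 6 gave 1, 0, 0, 12, 2 and 0 members. In M c-Raf they gave 7, 0, 6, 11, 6 and 0 members.
The F WT arrays gave 4, 0, 0, 8, 3 and 0 members, and the F c-Raf arrays 0, 1, 0, 11, 0 and 10. The median was 0.5 in M WT (1.28% of the members), 6 in M c-Raf (15.4%), 1.5 in F WT (3.85%) and 0.5 in F c-Raf (1.28%). Among the other mouse miRNAs the median was 68 (11.9%), 105.5 (18.4%), 78 (13.6%) and 91 (15.9%) in the same order. The group differences in these counts were not tested. The ranges of the 4 groups overlapped almost completely, since every group held an array with 0 and an array with at least 8 members.

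**Figure D1:**
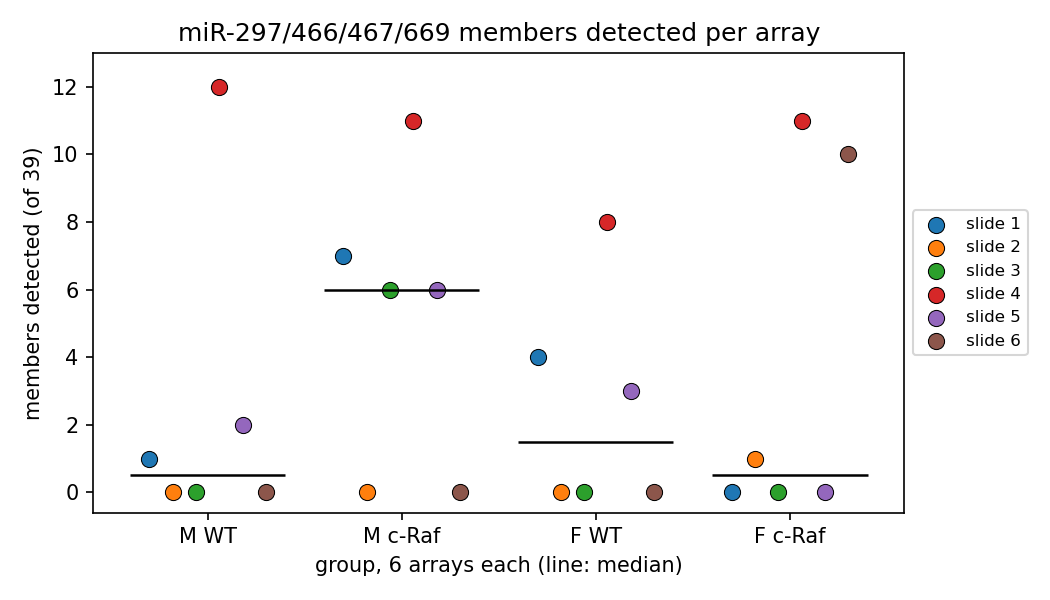
Number of the 39 members detected on each array (y axis) by group (x axis); each point is 1 array, its colour is the slide, and the line is the median of 6 arrays. Slide 4 gave 8 to 12 members in every group, and each group also held an array with 0.

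Of the 8 arrays with 6 or more members, 4 were those of slide 4. The others were M c-Raf replicates 1, 3 and 5 and F c-Raf replicate 6, on 4 different slides. The 4 arrays of slide 4, which were also the only arrays of their scan, had 12 members (M WT), 11 (M c-Raf), 11 (F c-Raf) and 8 (F WT). All 7 tested members were detected on each of these 4 arrays. Of the 82 detections of a member on an array, 42 (51.2%) fell on slide 4, beside 23.8% of the detections of other mouse miRNAs. No other slide had more than 12 detections.

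The slide and scan terms were tested across all 120 tested miRNAs with limma's moderated F test on log2 levels divided by the brightness of the array. The detection counts and the unscaled intensities were not tested for slide or scan, so these tests do not decide on the detections of slide 4. For the slide, 0 of the 7 members passed at an adjusted p under 0.05, against a background of 18.3% of the miRNAs, with adjusted p between 0.297 and 0.393. For the scan, 0 of 7 passed, also against 18.3%, with adjusted p between 0.132 and 0.266. Without the arrays of slide 4, 10 of the 39 members were still detected on some array.

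The intensities were then followed array by array for each tested member. miR-467f ran from -1.60 to 56.5 units in M WT with a median of 4.52, and from 1.64 to 46.9 with a median of 18.2 in M c-Raf. In F WT it ran from 2.59 to 20.5 units with a median of 8.72, and for F c-Raf from 1.28 to 39.8 with a median of 7.70. The 4 groups overlapped, and the brightest array of each was replicate 4.

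miR-466i ran from -0.01 to 44.5 units in M WT (median 1.76) and from 1.81 to 27.6 in M c-Raf (median 14.1). It ran from 1.24 to 13.7 units in F WT (median 5.44) and from -0.58 to 26.2 in F c-Raf (median 6.03). As for miR-467f, the groups overlapped and replicate 4 was brightest in each.

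miR-669n, with its UG repeat, ran from 0.225 to 26.5 units in M WT (median 5.14) and from 1.78 to 17.7 in M c-Raf (median 8.75). In F WT its range was 1.95 to 11.8 units (median 6.12) and in F c-Raf 0.962 to 18.1 (median 7.14). Its group medians lay closer together than those of miR-466i, and the groups overlapped.

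miR-466f-3p, which has copies inside and outside Sfmbt2, ran from -2.12 to 51.4 units in M WT (median 1.30) and from 1.76 to 28.0 in M c-Raf (median 11.7). It ran from -0.50 to 14.3 units in F WT (median 3.79) and from -0.62 to 30.5 in F c-Raf (median 5.14). The single brightest array of the M WT group exceeded every array of the 3 other groups.

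Among members with genes inside Sfmbt2, miR-466g ran from -2.84 to 56.3 units in M WT (median 1.93) and from 0.289 to 24.7 in M c-Raf (median 12.2). In F WT it ran from -1.41 to 13.5 units (median 1.96) and in F c-Raf from -1.15 to 32.2 (median 5.60). The groups overlapped, with the highest value again in M WT.

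miR-669f ran from 0.0259 to 27.3 units in M WT (median 1.44), and from 1.19 to 21.7 in M c-Raf (median 10.98). It ran from 1.14 to 10.8 units in F WT (median 3.89) and from 0.222 to 16.9 in F c-Raf (median 4.39). For miR-467a-1*, a minor arm by its name, the group medians ran from 0.413 to 4.51 units. Its highest value was 23.8 units in M WT, against 13.9 for F c-Raf, 11.4 for M c-Raf and 7.13 for F WT. The second brightest M WT array, replicate 5, reached 11.6 units. In F WT the highest value was on replicate 1, and replicate 4 gave 4.90 units.

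**Figure D2:**
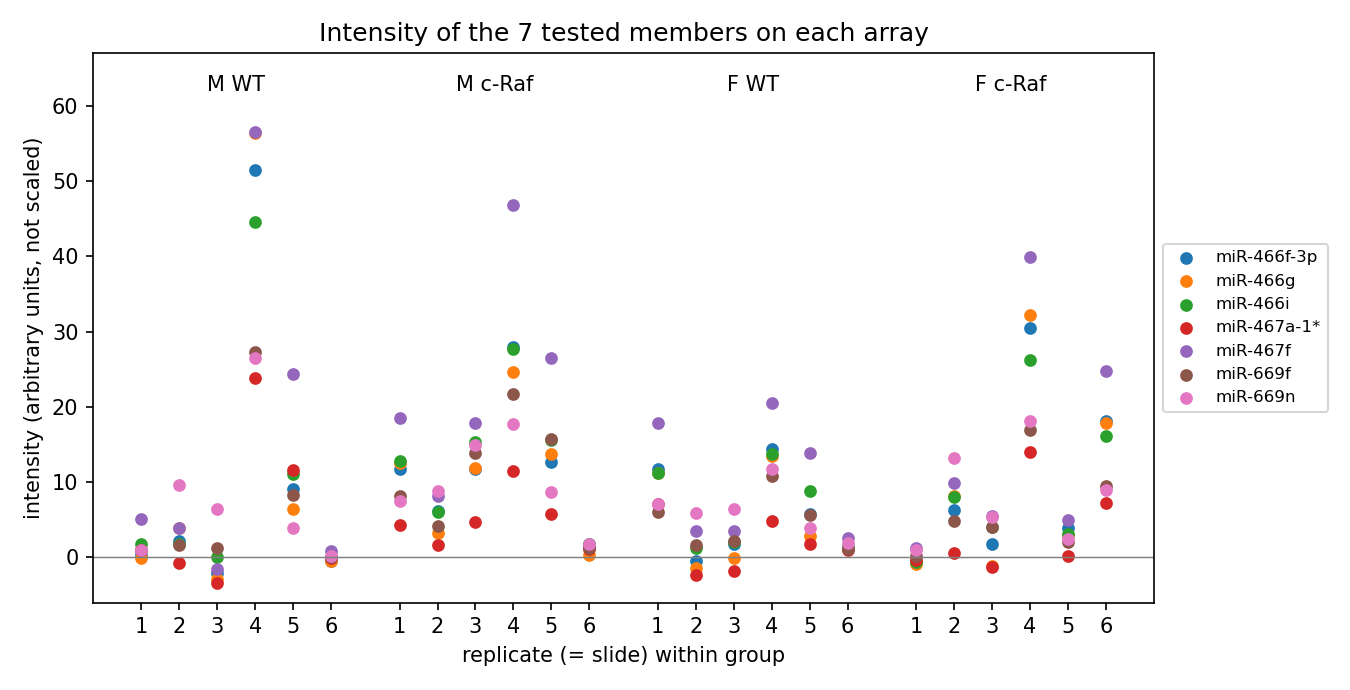
Unscaled intensity (y axis, arbitrary units) of the 7 tested members, 1 colour each, on the 24 arrays (x axis, replicates 1 to 6 within each group). The points of an array rise and fall together, and M WT replicate 4 holds the highest value of every member, from 23.8 to 56.5 units.

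For 7 of the 7 tested members the brightest of the 24 arrays was M WT replicate 4. That array was the second dimmest of all in brightness (52.8 units), and 71 mouse miRNAs were detected on it, 12 of them members. It was also the 1 array of 24 without the endothelial miR-126-3p. Of the 30 tissue markers listed, 3 were detected on it (miR-200b, miR-200c and the erythroid miR-486), against 3 to 16 with a median of 8 on the other 23 arrays. The part of these markers in the members' signal was not tested. Its intensity exceeded that of the next array 1.21 to 1.75 times. Among the 113 other tested miRNAs, 5 (4.42%) were brightest on this array, while 88 (77.9%) were brightest on M c-Raf replicate 4, the brightest array.

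The 5 others brightest on M WT replicate 4 were miR-1187, miR-574-3p, miR-574-5p, miR-207 and miR-877*. The first 3 of these are the repeat-bearing miRNAs printed above, the 3 found outside the 4 names in the 30.6% of mouse miRNAs that had a sequence. On M WT replicate 4 miR-574-5p gave 53.8 units, miR-574-3p 58.4 and miR-1187 27.8. On M c-Raf replicate 4 they gave 50.7, 30.8 and 19.3 units. These 3 are miRNAs of other loci, and whether a probe of one takes up another was not tested.

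The pattern held over the separate probes of a member. The 12 detected members had 34 probes, with 2 to 4 probes and 20 spots per miRNA, and 31 of the probes were brightest on M WT replicate 4. The exceptions were both probes of miR-466c-5p and 1 of the 2 probes of miR-669f, which gave 26.8 units there and 27.3 on M c-Raf replicate 4. All 12 were detected on M WT replicate 4, miR-466c-5p on it alone, so the count depends in part on how they were chosen. For the 7 tested members, 17 of 18 probes were brightest on that array. Of the 5 members detected on 1 to 5 arrays, 4 were brightest on M WT replicate 4, and of the 27 not detected on any array, 5 were.

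The tested members moved together over the 24 arrays. Among their 21 pairs, Pearson's r of the unscaled intensity ran from 0.743 (miR-467a-1* with miR-669n) to 0.992 (miR-466f-3p with miR-466g), and Spearman's coefficient from 0.512 to 0.975. In all, 49 relations were computed, each with 100000 permutations. For the pairs, the adjusted permutation p of r ran from 1.485e-05 to 0.000191 and that of Spearman's coefficient from 1.633e-05 to 0.0120, where 1e-05 is the smallest raw p that the permutations can give. Without the 2 arrays farthest from the median, r ran from 0.436 to 0.981. Within the scans of slides 5 and 6 and of slides 2 and 3, with 8 arrays each, r ran from 0.612 to 0.980 and from 0.769 to 0.986. The other scans held 4 arrays each, which is too few.

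The repeat miRNAs outside the 4 names moved with the members as well. miR-467f gave r = 0.929 with miR-574-5p (Spearman 0.885), r = 0.966 with miR-574-3p (Spearman 0.905) and r = 0.814 with miR-1187 (Spearman 0.714). The permutation p was at most 2e-05 for r and 0.00013 for Spearman's coefficient, and the adjusted p at most 2.579e-05 and 0.000168. Over the 21 relations of this kind, r ran from 0.716 to 0.986, from 0.391 to 0.963 without the 2 arrays farthest from the median, and from 0.568 to 0.991 within the scans of 8 arrays. All these values share the array, and with it the amount and quality of its RNA.

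With the brightness of the array, r over all 24 arrays ran from 0.233 (miR-467a-1*) to 0.551 (miR-669f), with adjusted permutation p between 0.0119 and 0.244. Spearman's coefficient ran from 0.323 to 0.574, with adjusted p between 0.00466 and 0.125. With the 2 arrays of most extreme brightness left out, M c-Raf replicates 4 and 5, r lay between 0.0170 and 0.265. Without M WT replicate 4 alone, r with brightness ran from 0.509 to 0.843, and within the scans of 8 arrays it ran from 0.322 to 0.891. In the scan of slides 2 and 3, which holds none of these 3 arrays, it ran from 0.448 to 0.891. Without M WT replicate 4, r of the members with the repeat miRNAs outside the 4 names ran from 0.505 to 0.975. That range overlaps the one with brightness without the same array. Correlations of the members with other tested miRNAs were not computed.

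**Figure D3:**
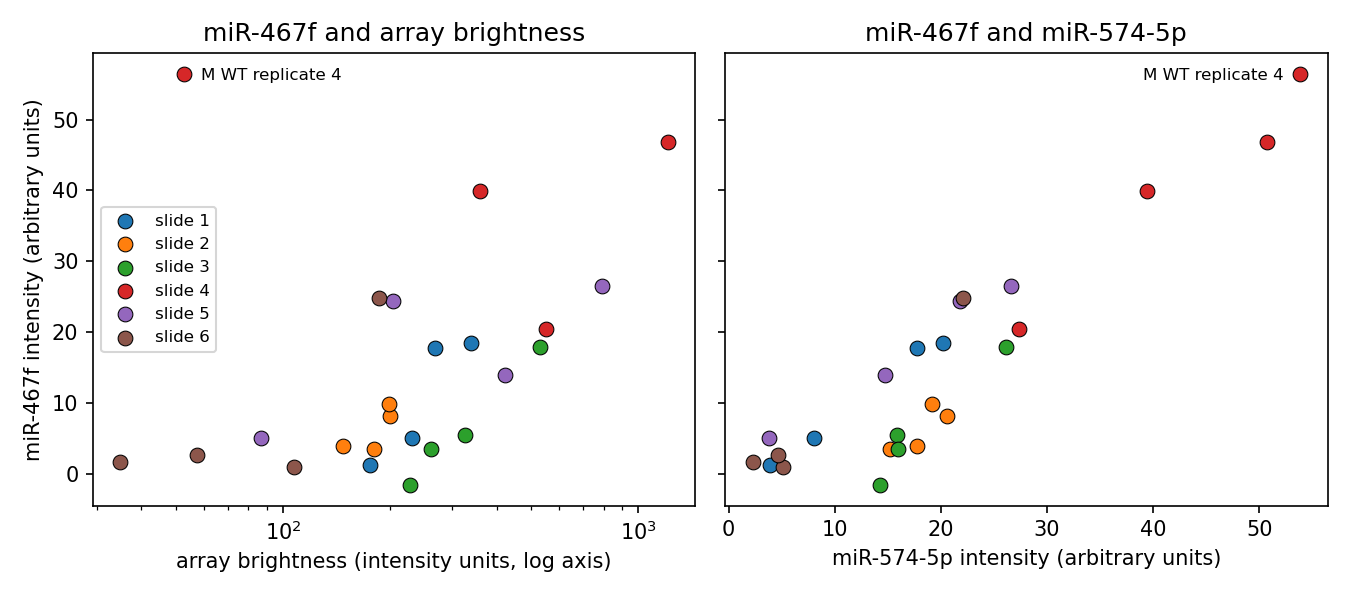
Intensity of miR-467f (y axis, arbitrary units) on the 24 arrays against the array's brightness (left, log axis) and against the intensity of miR-574-5p (right), coloured by slide. M WT replicate 4, at 56.5 units, stands far from the other arrays on the left and on their trend on the right (r = 0.929).

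Whether c-Raf changed the members was tested on scaled levels. Each spot was divided by the brightness of its array, values under 0.01 were raised to 0.01 (the floor, log2 of -6.64), and the log2 of the median over spots was compared with limma across all 120 tested miRNAs. On this scale miR-467f averaged -4.50 ± 2.60 (SD, n = 6) in M WT, -4.62 ± 0.28 in M c-Raf, -4.99 ± 0.83 in F WT and -4.51 ± 1.48 in F c-Raf. For miR-466g the means were -5.01 ± 2.61, -5.71 ± 0.61, -5.93 ± 0.86 and -4.93 ± 1.45 in the same order.

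Across the 7 members, the SD was 2.14 to 2.61 in M WT, 0.28 to 0.87 in M c-Raf, 0.52 to 0.87 in F WT and 0.96 to 1.48 in F c-Raf. Without M WT replicate 4 the SD of M WT was 0.84 to 1.47 over the other 5 arrays. The spread within groups, 1.28 to 1.58 pooled over the 4 groups, compared with a median of 0.55 for the other tested miRNAs. The standard error of a c-Raf difference within a sex was 0.71 to 0.88 for the members and 0.32 for the median tested miRNA, and 107 of the 120 had a smaller one than every member.

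In males, 0 of the 7 members were called at an adjusted p under 0.05, where 2.5% of the 120 tested miRNAs were, and 0 members had an unadjusted p under 0.05. The difference M c-Raf minus M WT ran from -1.01 to 0.08 with a median of -0.12, beside a median of 0.13 over all 120. The 3 smallest p values belonged to miR-467a-1* (difference -1.01, 95% interval -2.53 to 0.51, adjusted p = 0.344), miR-466g (-0.69, -2.52 to 1.13, adjusted p = 0.626) and miR-669n (-0.49, -2.004 to 1.02, adjusted p = 0.677). Each interval spans 0 and is over 3 log2 units wide.

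The sign in males depended on single arrays, on the scaling and on the floor. Without M WT replicate 4 the differences ran from -0.18 to 1.06 with a median of 0.78, 6 of 7 were positive, and 0 were called. When M WT replicate 5 was left out instead, the median was 0.026 and 4 of 7 were positive. With a floor of 0.001 all 7 were positive, with a median of 0.75. Within scans, the male difference was -5.71 to -4.79 on slide 4, 0.35 to 1.93 on slide 1, -0.46 to 0.78 on slides 5 and 6 and -0.28 to 1.43 on slides 2 and 3. Much of the slide 4 value comes from the scaling, since the brightness there was 1212 units for M c-Raf and 52.8 for M WT. Unscaled, miR-466g gave 24.7 units on M c-Raf replicate 4 and 56.3 on M WT replicate 4, and miR-467f gave 46.9 and 56.5. With the percentile taken over all spots in place of the 27 miRNAs, the members' median was 2.69 and that of all 120 was 1.01, and with no scaling these were 3.33 and 1.52. No direction in males is therefore stated.

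In females, 0 of the 7 members were called, where 5.0% of the miRNAs were, and 0 had an unadjusted p under 0.05. The difference F c-Raf minus F WT was positive for 7 of 7 members, from 0.29 to 0.99 with a median of 0.64 beside 0.03 over all 120, but with no scaling 4 of 7 were positive and with the percentile over all spots 5 of 7. The smallest p values belonged to miR-466g (0.99, 95% interval -0.83 to 2.82, adjusted p = 0.664), miR-466f-3p (0.82, -1.002 to 2.64, adjusted p = 0.736) and miR-466i (0.76, -0.98 to 2.51, adjusted p = 0.738). Within scans the female difference was 1.23 to 1.96 on slide 4, -2.73 to -1.17 on slide 1, 0.59 to 2.05 on slides 5 and 6 and 0.00 to 1.16 on slides 2 and 3.

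**Figure D4:**
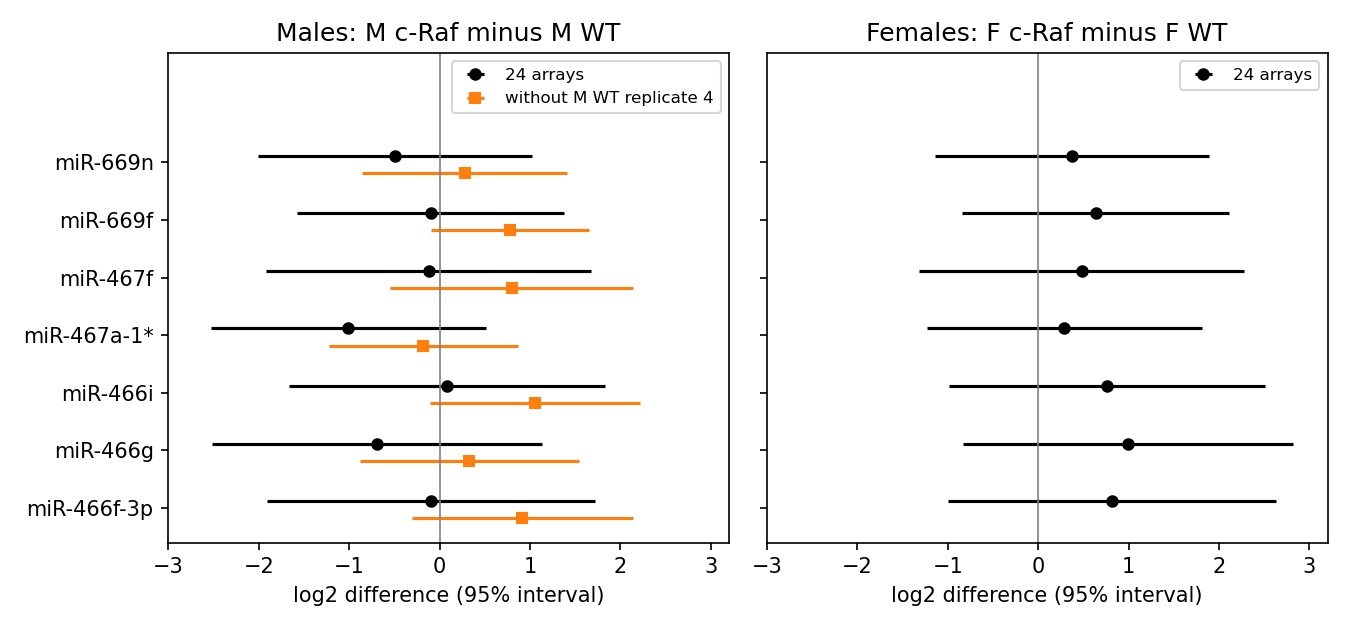
Log2 difference of c-Raf against WT (x axis) for the 7 tested members (y axis) in males (left) and females (right); points are limma estimates, bars their 95% intervals, and squares leave out M WT replicate 4. Every interval includes 0, and in males the median moved from -0.12 to 0.78 without that array. With no scaling it was 3.33 in males and 0.02 in females, beside 1.52 and -0.15 over all 120 tested miRNAs.

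Over both sexes, with 12 arrays against 12, 0 of the 7 members were called, where 18.3% of the miRNAs were, and 0 had an unadjusted p under 0.05. Differences ran from -0.36 to 0.42 with a median of 0.18 beside 0.09 over all 120. But with no scaling all 7 were positive (median 1.38, beside 0.68 over all 120), and with normexp background correction all 7 were negative (median -0.10, beside -0.08). miR-466i gave 0.42 (95% interval -0.81 to 1.65, adjusted p = 0.678), miR-467a-1* -0.36 (-1.43 to 0.71, adjusted p = 0.679) and miR-466f-3p 0.36 (-0.93 to 1.65, adjusted p = 0.734). Without M WT replicate 4, all 7 were positive with a median of 0.66, and 3 had an unadjusted p under 0.05. These were miR-669f at 0.71 (adjusted p = 0.105), miR-466i at 0.91 (adjusted p = 0.119) and miR-466f-3p at 0.87 (adjusted p = 0.146). The call of 0 members stood in that fit.

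Males and females were compared for their c-Raf effect by an interaction term. There, 0 of the 7 members were called, and 0.0% of the 120 miRNAs were, with 5 miRNAs and 0 members at an unadjusted p under 0.05. The male effect minus the female effect ran from -1.69 to -0.60 in the 7 members. It was -1.69 for miR-466g (95% interval -4.27 to 0.89), -1.30 for miR-467a-1* (-3.45 to 0.85) and -0.86 for miR-669n (-3.002 to 1.28), each with an adjusted p of 0.872. Without M WT replicate 4 the 7 values ran from -0.67 to 0.32, and with no scaling all 7 were positive with a median of 3.52, beside 1.66 over all 120.

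Between the sexes within a genotype, 0 members were called as well. For M WT minus F WT, where 0.0% of the miRNAs were called and 11 had an unadjusted p under 0.05 (0 of them members), the differences ran from 0.49 to 0.97. The smallest p values were those of miR-467a-1* (0.97, 95% interval -0.55 to 2.49, adjusted p = 0.608), miR-466g (0.91, -0.91 to 2.74, adjusted p = 0.632) and miR-669f (0.72, -0.75 to 2.20, adjusted p = 0.640). Without M WT replicate 4 they ran from -0.43 to 0.14, and with no scaling from -2.04 to -0.69 (median -1.48, beside -0.99 over all 120).

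For M c-Raf minus F c-Raf, 2.5% of the miRNAs were called and 0 members had an unadjusted p under 0.05. The differences ran from -0.77 to -0.01, and with no scaling from 0.56 to 3.45 (median 1.84, beside 0.68 over all 120). miR-466g gave -0.77 (95% interval -2.60 to 1.05, adjusted p = 0.952), while miR-467a-1* (-0.33) and miR-669n (-0.28) both had an adjusted p of 0.992.

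The 3 repeat miRNAs outside the 4 names were tested in the same fits, and 0 of the 3 were called in any of the 6 comparisons.

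The imprinted miRNA cluster on chromosome 12 is another large tandem cluster on the array, and was set beside the members as counts. Of its 70 entries, 9 (12.9%) were detected on some array and 1 was tested, against 12 and 7 of the 39 members. On M WT replicate 4, where 12 members were detected, 2 entries of the chromosome 12 cluster were, and on M c-Raf replicate 4 the numbers were 11 and 6.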

How the data were processed

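Per the labels, 100 ng of total RNA, labelled with Cy3, went onto mouse miRNA arrays of 1 colour, designed on mm9. The authors deposited scanner files whose intensity values are background-subtracted per spot and not scaled between arrays, with flags for detection. The labels name Feature Extraction 8.1.3 and the file headers 10.7.3.1. The authors' deposited table of scaled intensity values held 0 rows of the members as used here, so it gave no value.

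The members and lists were chosen with earlier results of these data known. Intensities were scaled, floored at 0.01 and summarised as the report describes, with control spots left out. The study's methods also scale to a 75th percentile and take the median over spots, but give 0.01 to negative values only and state no limit of the percentile to the 27 miRNAs detected everywhere. The percentile over all non-control spots, closer to those methods, is an alternative, and gave a median male difference of 2.69 in place of -0.12. Differences are on the log2 scale. The floor understates changes of dim miRNAs, and in intensity units it rises with the brightness of an array. All 24 arrays entered 1 fit of limma 3.58.1 in R 4.3.3 (lmFit, eBayes, two-sided, 1.80 prior and 20 residual degrees of freedom), with Benjamini-Hochberg adjustment over 120 miRNAs. Correlations and counts used Python 3.11.15 with scipy 1.17.1. Scripts were tested on simulated data.

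Named are all tested members, the 3 with the smallest p per comparison, any with an outlying array, and the others detected at least once. Other members, and miR-207 and miR-877*, were named after their values were seen. Each replicate number was a slide, and correlations between deviations of arrays of 1 slide ran from -0.42 to 0.72, so the slide was kept as an alternative. The number of arrays, 6 per group, limits the precision. Alternatives were other scalings, floors, filters, summaries of the spots, slide or scan as a block, the Welch test and each array left out. The order of floor and median, the slide and scan tests and the detection counts without slide 4 were chosen after seeing the data. The files hold no gMeanSignal column, so normexp with an offset of 50 used the median signal and median background.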

Additional observations from a re-analysis of the deposited data

Results flagged for a closer look

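In groups of 6 arrays, the highest or lowest array was set against the others: it stood apart when its gap to the nearest array, as a share of the whole range, passed Dixon's 95% limit. Of 32 groups examined, over 7 tested members and the number of members detected, 5 had such an array. Chance gives about 1 in 20 for separate groups of untied values. Here the members moved together and many values tied at the floor, so that rate does not apply.

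The array M WT replicate 4 accounted for 4 of the 5. It stood high in M WT with a log2 level of -0.039 for miR-466f-3p, 0.093 for miR-466g and -0.95 for miR-669f, and with 12 members detected. In the other 5 M WT arrays the highest log2 levels of these miRNAs were -4.48, -4.98 and -4.62. For each of the 3 members, 3 of the 6 M WT arrays lay at the floor. The fifth case was miR-467a-1* on M c-Raf replicate 6, at -5.05, in a group with 4 of 6 arrays at the floor. That array was the dimmest of all, with a brightness of 34.9 units, and no member was detected on it. Its unscaled miR-467a-1* intensity, 1.05 units, was the lowest of the group. The highest, 11.4 units on M c-Raf replicate 4, lay under the floor of that array, 12.1 units.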

How the results depend on the processing

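No member was called in any of the 242 fits run over the 6 comparisons and 41 settings, and the lowest adjusted p of a member in any fit was 0.090 (interaction under normexp, where all 7 had an unadjusted p under 0.05). Most of that shift was shared: the members' median was -1.69, beside -1.40 over all 120 miRNAs. In 2 other fits some members had an unadjusted p under 0.05 too: 2 in males with each array's dimmest signal well above background as its floor, and 3 over both sexes without M WT replicate 4. The methods' Welch test called 0 members in either sex, at its own thresholds (10 of 563 miRNAs in males, 3 of 547 in females) or after Benjamini-Hochberg. With each array left out in turn the number of members called stayed 0 in every comparison, and the number detected anywhere was 11 to 12. With at least 10 of the 20 spots required to be well above background, 11 members counted as detected. The share of all miRNAs called did move: over both sexes 22 of 120 were called in the main setting and from 0 to 32 in the other limma fits of these 120, in males 3 against 0 to 7, in females 6 against 0 to 10, in M c-Raf against F c-Raf 3 against 0 to 6, and for the interaction 0 against 0 to 2. With the slide as a replicate block the members called were 0 in every comparison, and the calls over all miRNAs went from 22 to 28 over both sexes, from 6 to 10 in females, from 3 to 4 in M c-Raf against F c-Raf and stayed at 3 in males.

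The signs of uncalled members were unstable. Of the 18 differences named above, the sign was kept in 204 refits under other settings and turned in 45, and the cause was not tested. The refits that kept it include those with slide or scan as a block and those with no filter. These leave a difference unchanged, so they could not turn its sign. With the percentile over all spots, the males gave 2.69 for miR-467a-1*, 3.03 for miR-466g and 0.79 for miR-669n. The females gave -0.13 for miR-466i, and both sexes 1.21 for miR-467a-1*. The interaction gave 2.70 for miR-466g, 2.96 for miR-467a-1* and 0.43 for miR-669n. M WT against F WT gave -0.53 for miR-467a-1*, -1.22 for miR-466g and -0.63 for miR-669f, and M c-Raf against F c-Raf gave 1.49 for miR-466g and 2.43 for miR-467a-1*. With no scaling, the males gave 3.84 for miR-467a-1*, 3.88 for miR-466g and 1.27 for miR-669n. The females gave -0.11 for miR-466g and -0.57 for miR-466i, and both sexes 1.74 for miR-467a-1*. The interaction gave 3.99 for miR-466g, 4.196 for miR-467a-1* and 1.25 for miR-669n. M WT against F WT gave -0.75 for miR-467a-1*, -1.48 for miR-466g and -0.86 for miR-669f, and M c-Raf against F c-Raf gave 2.51 for miR-466g, 3.45 for miR-467a-1* and 0.56 for miR-669n.

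With a floor of 0.001, the males gave 0.69 for miR-467a-1*, 0.92 for miR-466g and 0.092 for miR-669n, and both sexes 0.30 for miR-467a-1*. The interaction gave 0.030 for miR-466g and 0.78 for miR-467a-1*, M WT against F WT gave -0.056 for miR-669f, and M c-Raf against F c-Raf gave 0.28 for miR-466g and 1.23 for miR-467a-1*. Over both sexes miR-466i and miR-466f-3p turned to -0.12 and -0.10 with normexp, to -0.26 and -0.27 with a floor of 0.1, and to -0.50 and -0.52 with each array's dimmest signal well above background as its floor. miR-466f-3p turned to -0.060 with the total gene signal, and miR-467a-1* in M c-Raf against F c-Raf to 0.33 with centring on the median. A floor of 0.1 left 3 differences at 0. Leaving out M WT replicate 4 turned 5 of the 18, and no other array turned any. Over the arrays left out, the difference ran from -1.02 to 0.33 for miR-466g and from -0.85 to 0.28 for miR-669n in males, and from -0.49 to 0.055 for miR-467a-1* over both sexes. In M WT against F WT it ran from -0.11 to 1.24 for miR-466g and from -0.16 to 0.98 for miR-669f.

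Depth limits these values: 29.2% of the values of tested members and 82.7% of those of the undetected ones lay at the floor, where they have no order. The deposited table gave no value for a member, so its alternatives were not run.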
